A study of Mus musculus with 12 samples.

Results

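The genes described here encode the enzymes, substrate and receptors of the renin-angiotensin system: Ren1, Agt, Ace, Agtr1a, Agtr1b, Atp6ap2, Enpep and Mas1. Members were taken by gene symbol from a count table of 23378 genes, and 6 of the 8 were in it. Agtr1b and Mas1 were not among its rows, so no value is given for them. The table listed only genes whose counts over the 12 libraries summed to at least 10.

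Renin, secreted by granular cells of the afferent arteriole, cuts angiotensinogen to angiotensin I. Angiotensin-converting enzyme (ACE) turns that peptide into angiotensin II, which raises blood pressure through the type 1 receptor and, through the same receptor, restrains renin expression. Macula densa (MD) cells, a plaque of tubule cells where the thick ascending limb meets its own glomerulus, sense luminal salt and signal to the neighbouring granular cells. Low salt intake and ACE inhibition are the classical means of raising renal renin.

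All animals were C57BL/6 mice of the genetic model nNosCreERT2-mTmG. In this model an inducible Cre recombinase, driven by the neuronal nitric oxide synthase gene, switches a membrane reporter from red tdTomato to green GFP, so which cells turn green depends on the activity of that gene. After 14 days on control diet, or on low salt diet with the ACE inhibitor enalapril at 150 mg/L in drinking water (LS+enal), green cells (MD) and the brightest red cells (control cells) were sorted from kidney cortex. There were 2 MD and 4 control-cell libraries per diet, and the labels name the control cells as a stand-in for distal tubule and collecting duct epithelium. The labels do not say that replicates came from separate animals, so p-values measure the spread between these samples, which may be technical.

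Total counts ranged from 4259034 to 14856540 per library, of which nuclear protein-coding genes held 781241 to 2331458. The gene Gm42418, left out with the ribosomal RNA genes in an alternative fit, alone held 53.5% to 65.0% of the counts of a library. Levels are given as CPM, counts relative to the scaled library total, on which 3 counts equalled 0.231 to 0.734 CPM. Nos1, the macula densa isoform of nitric oxide synthase, stood at 100 to 232 CPM in MD libraries and at 0.109 to 0.734 CPM in control cells. It is the neuronal synthase gene that drives the Cre, so this difference follows from the sort. The 9 thick ascending limb and macula densa markers summed to 2977 to 4451 CPM in MD libraries and to 200 to 1512 CPM in control cells. Control cells also held RNA of cell types other than the labelled epithelium. The 7 podocyte markers summed to 44.8 to 1398 CPM in them, the 10 endothelial markers to 53.7 to 1705 CPM, and the 7 principal cell markers of the collecting duct to 102 to 808 CPM. Control-cell replicate 4 on control diet stood apart, with the lowest podocyte and endothelial sums and the highest principal cell sum of the control cells. In bulk RNA, fewer cells of a type and less RNA per cell cannot be told apart.

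Positions of the 6 members in the table are on GRCm38, from the GENCODE M21 annotation. Agt lies at chr8:124556534-124569706 on the minus strand, Ren1 at chr1:133350510-133360325 on the plus strand and Atp6ap2 at chrX:12587801-12617049 on the plus strand. Ace lies at chr11:105967945-105989964 and Agtr1a at chr13:30336441-30382867, both on the plus strand. Enpep lies at chr3:129269175-129332720 on the minus strand. The annotation places Gm11651 and Gm42628 on the strand opposite Ace and Enpep, and Gm48161 on the strand of Agtr1a. No source used here says whether strand was used in counting, and reads of such overlaps may be shared between the genes. C57BL/6 mice carry Ren1 alone and lack the near-identical Ren2 copy found in some other strains.

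Renin and its substrate are the members whose levels the diet and cell comparisons below turn on, so the core of their promoters is shown first. Both stretches around the TATA box, and the Ren1 element known to bind HOX and PBX proteins, came from RefSeq windows on GRCm38.p6 and are printed 5′ to 3′ on the gene's strand, with the motif in capitals. The windows ran from 250 bases before to 50 bases after the RefSeq start.

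Ren1 HOX and PBX element, chr1:133350599-133350628, plus strand: ggccctggggTAATAAATCAaagcagagcc
Ren1 TATA box, chr1:133350633-133350662, plus strand: atacatggtgtgTATAAAagaaggctcagg
Agt TATA box, chr8:124569719-124569748, minus strand: ccaccccttgagTATAAAtaagcctgcttg

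The capitals of the Ren1 HOX and PBX element begin 65 bases upstream of the RefSeq start, those of its TATA box 29 bases upstream and those of the Agt TATA box 30 bases upstream. The GENCODE M21 start of Ren1 lies 164 bases further upstream, so the printed Ren1 stretches fall inside the first exon of that longer model. On either strand, the 10 letters of the HOX and PBX element were found in 0.0670% of 32851 promoter windows and, among the members, in Ren1. TATAAA was found on either strand in 13.6% of windows, among them those of Ace, Agt, Agtr1b, Enpep and Ren1. On the gene's strand it was in 8.32% of windows, and the Ace and Enpep matches lay on the opposite strand alone. The cAMP response element TGACGTCA was in 1.79% of windows and in no window of a member. Of the 8 members, 7 had a window (2 for Ace), and Agtr1a had none. A match describes the letters and shows no binding.

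In control cells Ren1 was the one gene that edgeR called between diets, while the DESeq2 Wald test called 74 genes, Ren1 among them. Ren1 stood at 5.58, 1.88, 6.19 and 4.44 CPM on control diet (20 to 65 counts) and at 42.7, 135, 66.4 and 92.6 CPM on LS+enal (316 to 910 counts). Every control-cell library on LS+enal lay above every one on control diet. The means were 4.52 ± 1.90 and 84.3 ± 39.7 CPM (SD, n = 4 each), an 18.6-fold difference. Ren1 rose by 4.21 on the log2 scale (SE 0.43, 95% interval 3.29 to 5.14, adjusted p = 0.00476 in the edgeR quasi-likelihood test), the smallest p-value of 14180 genes tested. Its call was 0.00705% of the genes tested, and without replicate 4 on LS+enal edgeR called 5 genes, while 2.1% of all genes were higher without overlap. The exact two-sided permutation p over the 8 libraries was 0.0286, the smallest that 70 splits allow. Any gene without overlap has this value, so it adds nothing to the lack of overlap. With a fit of control-cell libraries alone, the Ren1 adjusted p was 0.0869 in edgeR, at a log2 fold change of 4.25.

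MD libraries held less Ren1, and the treated libraries were again higher. It stood at 1.44 and 0.977 CPM on control diet (14 and 12 counts) and at 8.24 and 11.0 CPM on LS+enal (43 and 67 counts). Both treated libraries lay above both controls, a pattern seen in 18.8% of all genes in this comparison. The means were 1.21 ± 0.324 and 9.61 ± 1.95 CPM (SD, n = 2 each), a 7.97-fold difference. The log2 fold change was 2.99 (SE 0.63, 95% interval 1.63 to 4.36), and Ren1 ranked 25 by p-value, but its edgeR adjusted p of 0.215 missed the threshold of 0.05. No gene passed in this comparison (0 of 14180, or 0%), although 1594 genes (11.2%) had an unadjusted p under 0.05. The DESeq2 Wald test called 93 genes there with Ren1 among them (adjusted p = 0.00340), and an edgeR fit of the 4 MD libraries alone called 105, Ren1 included (adjusted p = 0.0155).

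**Figure D1:**
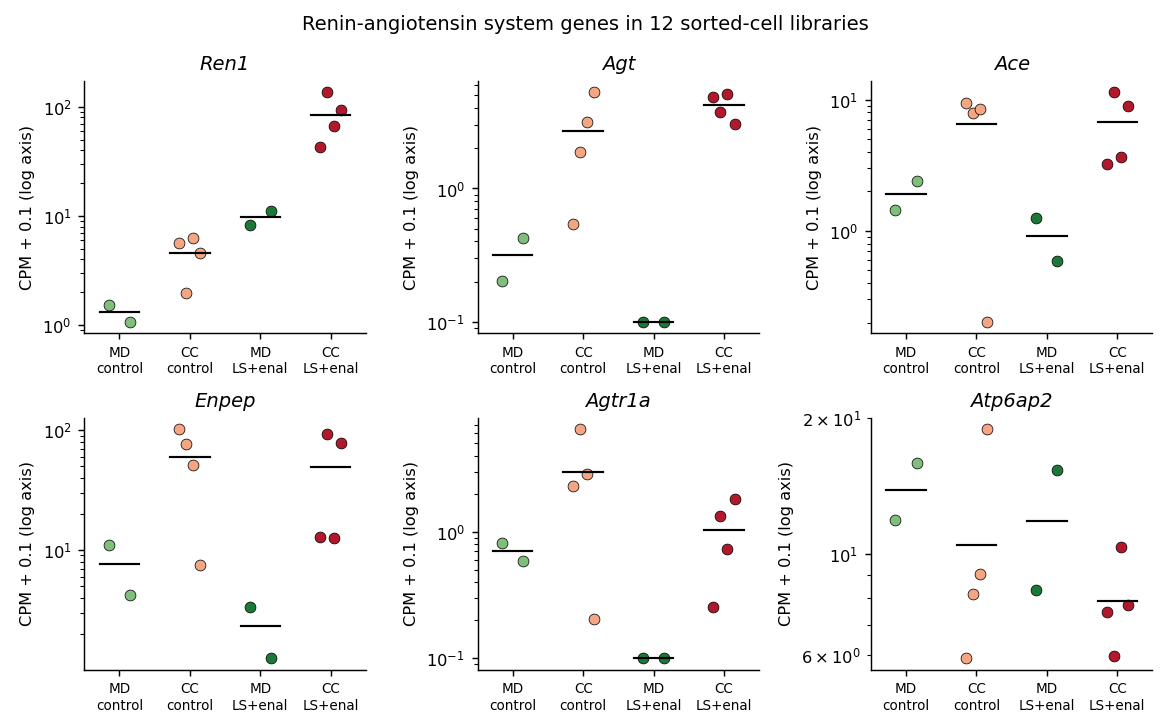
CPM plus 0.1 (log axis) of the 6 members in the table, 1 point per library and a line at the group mean, for macula densa (MD) and control cells (CC) on control diet or low salt with enalapril (LS+enal). Ren1 is higher on LS+enal in both populations, and Agt and Agtr1a are at 0 counts in both MD libraries on that diet.

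The 2 diet effects on Ren1 were set against each other in an interaction term. The effect in MD cells was 1.22 log2 units smaller, with a 95% interval of -2.83 to 0.39 and an edgeR adjusted p of 0.774, so a difference between the populations was not shown. That term called 0 of 14180 genes (0%) in edgeR, with 997 (7.03%) at an unadjusted p under 0.05, and the DESeq2 Wald test called 13 genes, none of them a member.

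Between populations, the level of Ren1 was set side by side on each diet. The MD mean was 26.7% of the control-cell mean on control diet and 11.4% on LS+enal, with no overlap of libraries on either diet, as for 16.7% and 19.9% of all genes in that direction. The 4 group means ran in the order MD on control diet, control cells on control diet, MD on LS+enal, and control cells on LS+enal, and no neighbours in that order overlapped. The log2 difference was -3.12 (SE 0.54) on LS+enal, at an edgeR adjusted p of 0.00637. On control diet it was -1.90 (SE 0.57) at an adjusted p of 0.0656, which did not pass. Averaged over both diets Ren1 was lower in MD cells by a log2 difference of -2.51 (SE 0.39, adjusted p = 0.00114 in edgeR), and it stayed called in all 19 alternative settings of that comparison, the highest adjusted p being 0.0154. On LS+enal the call was lost without MD replicate 1 (adjusted p = 0.0531) or MD replicate 2 (0.0653) on that diet. On control diet Ren1 passed without control-cell replicate 2 (0.0379) or replicate 4 (0.0481), and in the DESeq2 Wald test (0.0113).

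Renin cells carry smooth muscle genes, so the 8 markers of renin and smooth muscle cells, with Ren1 left out, were read beside Ren1. Their summed level was 42.6 to 57.8 CPM in MD libraries on control diet and 20.3 to 23.6 CPM on LS+enal, lower where Ren1 was higher. In control cells it was 178 to 294 CPM on control diet and 173 to 602 CPM on LS+enal, so those groups overlapped. Among the 4 control-cell libraries on LS+enal, Ren1 and the sum kept the same order, from 42.7 CPM of Ren1 at a sum of 173 CPM to 135 CPM of Ren1 at 602 CPM. On control diet they did not. There, control-cell replicate 4 held 4.44 CPM of Ren1 at a sum of 178 CPM, and replicate 2 held 1.88 CPM at 274 CPM. No library held a sum of 0, and no marker of the list was at 0 throughout a group. Akr1b7, an aldose reductase relative made by renin cells, averaged 1.11 ± 0.211 CPM in control cells on control diet and 6.17 ± 3.49 CPM on LS+enal (SD, n = 4 each), without overlap. Its log2 fold change of 2.45 did not pass (edgeR adjusted p = 0.317). Acta2, smooth muscle actin, averaged 19.5 ± 6.64 CPM and 32.7 ± 19.7 CPM in the same groups. In MD cells Akr1b7 averaged 0.265 CPM on control diet (2 to 4 counts) and 0.192 CPM on LS+enal (0 to 2 counts). It was a small part of the sum in every group, most of which came from smooth muscle genes. In the averaged cell comparison, 7 of the 8 markers were lower in MD cells and 0 higher, where 13.9% of all genes were lower and 7.48% higher. The part of these cells in the Ren1 differences was not tested.

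**Figure D2:**
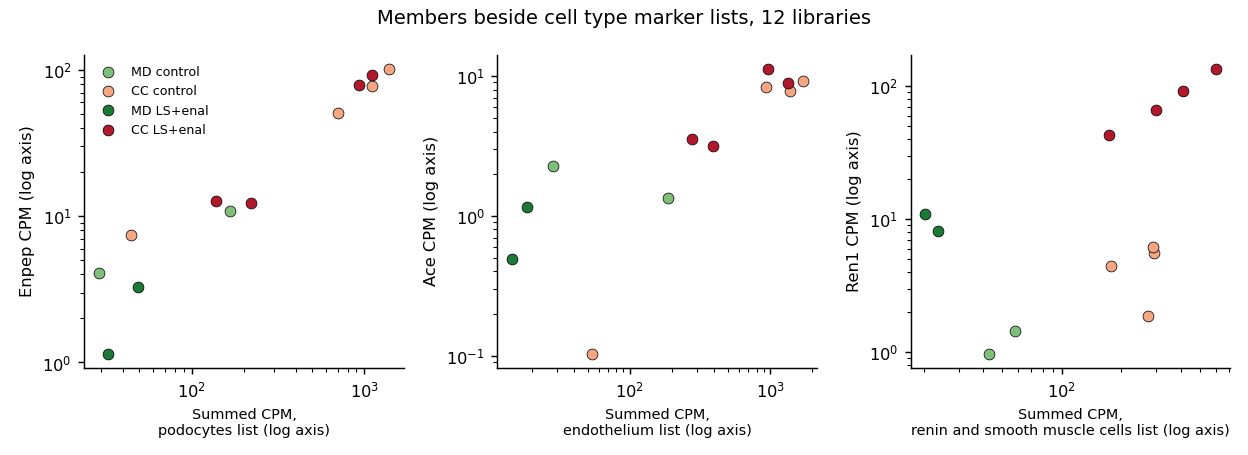
CPM of Enpep, Ace and Ren1 (log axes) against the summed CPM of the podocyte, endothelial, and renin and smooth muscle marker lists (log axes), 1 point per library, for macula densa (MD) and control cells (CC) on control diet or low salt with enalapril (LS+enal). In control cells Enpep and Ace are low where the podocyte and endothelial sums are low, and in control cells Ren1 is higher on LS+enal while the sums of its marker list overlap between diets.

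Angiotensinogen, the protein renin cuts, was scarce. Agt had 1 and 4 counts in MD libraries on control diet (0.103 and 0.326 CPM) and 0 counts in both MD libraries on LS+enal. Control cells held 0.437, 1.79, 3.05 and 5.17 CPM on control diet and 4.76, 3.67, 5.04 and 2.95 CPM on LS+enal. On each diet every MD library lay below every control-cell library in CPM, while the control cells on both diets overlapped. On control diet the nearest libraries, MD replicate 2 and control-cell replicate 1, had 4 counts each and were set apart by library scaling. On LS+enal Agt was at least 7.70-fold lower in MD cells, taking 3 counts per library as the floor (edgeR adjusted p = 0.0167), a call lost without MD replicate 1 or 2 on that diet (0.0711 and 0.131). On control diet the log2 difference was -3.47 (SE 0.93, edgeR adjusted p = 0.0493), and it lost the call in 15 of 20 alternative settings, over which the adjusted p ran from 0.00511 to 0.246. Averaged over both diets Agt was called lower in MD cells (edgeR adjusted p = 0.00200) and stayed so in all 19 alternative settings. In control cells the diet difference was 0.65 on the log2 scale (95% interval -0.59 to 1.88, edgeR adjusted p = 0.965). For MD cells no fold between diets is given, since the mean on control diet (0.214 CPM) also lay under the floor.

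The (pro)renin receptor Atp6ap2, which binds renin and its precursor and is also an accessory subunit of the vacuolar proton pump, was the member with the most even level. It stood at 11.8 and 15.8 CPM in MD cells on control diet and at 8.24 and 15.3 CPM on LS+enal. Control cells had 5.80, 8.08, 8.95 and 18.8 CPM on control diet and 7.38, 5.88, 10.3 and 7.63 CPM on LS+enal. MD and control cells overlapped on each diet, as did the diets within each population, with control-cell replicate 4 on control diet the highest of the 12 libraries. It passed in no comparison, and the averaged difference between MD and control cells was 0.50 on the log2 scale (95% interval -0.14 to 1.15, edgeR adjusted p = 0.257). Without control-cell replicate 4 on control diet that difference was 0.73 and passed (adjusted p = 0.0257). Between diets the log2 difference was -0.42 in control cells (95% interval -1.18 to 0.35) and -0.23 in MD cells (-1.29 to 0.83). The 16 listed subunits of the proton pump, all tested, had 0 calls in edgeR in the averaged comparison, where 21.3% of all genes were called. Their median log2 difference was 0.22, beside -0.06 over all genes. An unadjusted p under 0.05 was found for 3 of them. The DESeq2 Wald test called 2 of the 16, Atp6v1b2 and Atp6v1e1, and 3714 of all 14180 genes.

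Ace, the target of enalapril, showed no diet difference in either population that passed. MD libraries held 1.33 and 2.28 CPM on control diet and 1.15 and 0.492 CPM on LS+enal. Control cells held 9.29, 7.80, 8.38 and 0.103 CPM on control diet and 3.15, 11.3, 3.57 and 8.85 CPM on LS+enal. Replicate 4 on control diet, with 1 count, lay below every MD library, and the other 7 control-cell libraries lay above all of them. In control cells the log2 difference between diets was 0.05 (95% interval -1.54 to 1.63, edgeR adjusted p = 0.999). In MD cells it was -1.17 (-4.06 to 1.73, adjusted p = 0.782). Averaged over both diets Ace was lower in MD cells by a log2 difference of -2.41 (SE 0.78, edgeR adjusted p = 0.0449), a call lost in 11 of 19 alternative settings with adjusted p-values up to 0.161. Without control-cell replicate 4 on control diet, Ace was lower in MD cells on each diet (edgeR adjusted p = 0.0169 and 0.0117). With it, the edgeR adjusted p-values were 0.292 on control diet and 0.139 on LS+enal. The DESeq2 Wald test of all 12 libraries called Ace lower on LS+enal (adjusted p = 0.0379) but not on control diet. An edgeR fit of the LS+enal libraries alone also called it (0.0385).

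ACE is abundant on endothelium, and in control cells low endothelial sums went with low Ace. The 10 endothelial markers on control diet summed to 53.7 CPM in replicate 4 of the control cells, against 940 to 1705 CPM in the other 3 libraries of that group. On LS+enal the control-cell sums ran from 277 to 1346 CPM, and the 2 lowest, 388 and 277 CPM, were those of the libraries with 3.15 and 3.57 CPM of Ace. MD libraries held 28.5 to 188 CPM on control diet and 14.4 to 18.6 CPM on LS+enal, where the marker Plvap was at 0 counts. On control diet the order in MD cells was the opposite, with 1.33 CPM of Ace at a sum of 188 CPM and 2.28 CPM at 28.5 CPM. All 10 markers were called lower in MD cells in the averaged comparison, where 13.9% of all genes were, and 1 and 5 of the 10 on control diet and on LS+enal alone. Pecam1, an adhesion molecule of endothelium, averaged 87.1 ± 57.9 CPM in control cells on control diet (SD, n = 4) and 10.1 ± 9.35 CPM in MD cells (SD, n = 2). The podocyte sums given below were also lowest, among control cells, in replicate 4 on control diet. Among control cells on LS+enal they kept the order of Ace, which the endothelial sums did not. The part of endothelium or podocytes in the Ace differences was not tested.

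Of the type 1 angiotensin II receptor genes, Agtr1a was in the table. MD libraries had 7 and 6 counts on control diet (0.718 and 0.489 CPM) and 0 counts on LS+enal. Control cells held 2.19, 6.39, 2.76 and 0.103 CPM on control diet and 0.154, 1.22, 0.630 and 1.73 CPM on LS+enal. On control diet 3 control-cell libraries lay above both MD libraries and replicate 4 lay below them. In control cells the log2 difference between diets was -1.64 (SE 0.90, 95% interval -3.62 to 0.34) at an edgeR adjusted p of 0.883. In MD cells Agtr1a was at least 1.13-fold lower on LS+enal, with an edgeR adjusted p of 0.520, so a change was not detectable at this depth. Between populations it was at least 1.75-fold lower in MD cells on LS+enal (adjusted p = 0.181). The averaged edgeR test gave an adjusted p of 0.0571 and passed without control-cell replicate 4 on control diet (0.00913) or replicate 1 on LS+enal (0.0412). The averaged DESeq2 Wald test of all 12 libraries called Agtr1a lower in MD cells (adjusted p = 0.00765). The 9 mesangial and fibroblast markers, from cells that carry this receptor, summed to 40.1 to 168 CPM and 32.8 to 76.2 CPM in control cells on control diet and on LS+enal, and to 5.95 to 31.4 CPM and 5.17 to 5.25 CPM in MD cells. Dcn in MD cells on control diet and Itga8 on LS+enal were at 0 counts. The part of these cells in the Agtr1a values was not tested.

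Aminopeptidase A, the Enpep product that converts angiotensin II to angiotensin III, had the largest log2 difference between populations among members with counts in every library. MD libraries held 10.9 and 4.07 CPM on control diet and 3.26 and 1.15 CPM on LS+enal. Control cells held 102, 77.1, 50.6 and 7.44 CPM on control diet and 12.7, 92.3, 12.4 and 78.3 CPM on LS+enal. Control-cell values thus spread over more than an order of magnitude within a diet, and on control diet replicate 4 lay between the MD libraries. Averaged over both diets Enpep was lower in MD cells by a log2 difference of -3.74 (SE 0.85, edgeR adjusted p = 0.00922). The call was lost without MD replicate 2 on control diet (0.0523) or without MD replicate 2 on LS+enal (0.0574). Taken diet by diet, the log2 differences were -2.99 (adjusted p = 0.123) on control diet and -4.48 (adjusted p = 0.0542) on LS+enal. Without control-cell replicate 4 on control diet, the edgeR adjusted p-values of these were 0.0246 and 0.0145. The DESeq2 Wald test of all 12 libraries called Enpep lower on both diets (adjusted p = 0.0151 and 0.000166). An edgeR fit of the LS+enal libraries alone called it too (0.0404). The diets did not differ in control cells by more than the spread, at a log2 difference of -0.28 (95% interval -1.95 to 1.39). In MD cells the difference was -1.77 (-4.56 to 1.02).

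Podocytes carry aminopeptidase A, and Enpep followed the podocyte sum over the libraries. The 7 podocyte markers summed to 1398, 1112, 703 and 44.8 CPM in control-cell replicates 1 to 4 on control diet and to 138, 1104, 220 and 930 CPM on LS+enal. These are the libraries with the high and low values of Enpep above, and in control cells the endothelial sums were high and low in the same libraries. MD libraries held sums of 29.1 to 168 CPM and 32.8 to 49.0 CPM on the 2 diets. No podocyte marker was at 0 throughout a group, and 5 of the 7 were called lower in MD cells in the averaged comparison, where 13.9% of all genes were, with 0 and 3 of the 7 on control diet and on LS+enal alone. Proximal tubule also carries the enzyme, and on control diet its sums went the other way. Its 11 markers summed there to 44.2 to 100.1 CPM in control cells and to 120 to 211 CPM in MD libraries. On LS+enal the sums overlapped, at 52.5 to 94.99 CPM in control cells and 54.2 to 135 CPM in MD libraries. In the averaged comparison 2 of these markers were higher in MD cells and 0 lower, where 7.48% of all genes were higher and 13.9% lower. On control diet alone 1 was higher, and on LS+enal alone 0 were called. The part of these cell types in the Enpep differences was not tested.

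**Figure D3:**
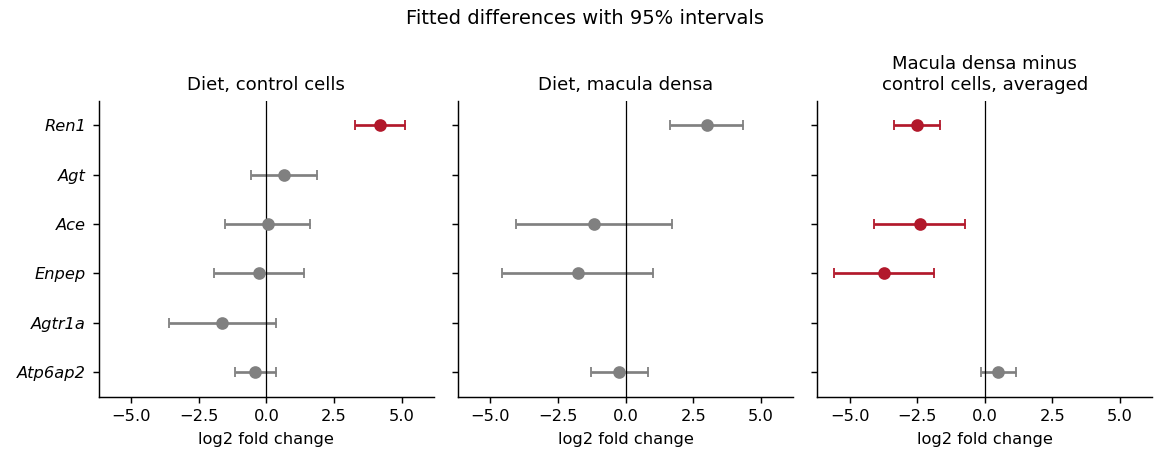
Log2 fold changes with 95% intervals from the edgeR fit of 12 libraries, for the diet effect in control cells, the diet effect in macula densa cells, and macula densa minus control cells averaged over diets, with calls at an adjusted p under 0.05 in red. Agt and Agtr1a, with 0 counts in both macula densa libraries on LS+enal, are drawn for control cells alone, and Agt is also called lower in the averaged comparison.

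Over the members, 4 of the 6 tested (Ren1, Agt, Ace and Enpep) were called lower in MD cells and 0 higher when the diets were averaged, against 13.9% of all genes called lower, 7.48% called higher and 21.3% called in either direction. Their median log2 difference was -3.13, beside -0.06 over all genes. With Agt and Agtr1a at a fitted value that depends on the prior count, this median is no bound. On control diet 1 member was called, Agt, where 3.92% of all genes were lower and 6.61% were called either way, and on LS+enal 2 were called, Ren1 and Agt, where 4.13% were lower and 7.27% were called either way. All MD libraries lay below all control-cell libraries for Ren1 and Agt on control diet, and for these with Ace, Agtr1a and Enpep on LS+enal, beside the 16.7% and 19.9% of genes given above. The nearest libraries of the 2 populations had 4 counts each for Agt on control diet, and 0 and 2 counts for Agtr1a on LS+enal. In MD cells, Agt, Ace, Agtr1a and Enpep were lower without overlap on LS+enal, as were 22.3% of genes, and none of the 4 passed. For Agt this set 1 and 4 counts on control diet against 0 on LS+enal, and for Agtr1a 7 and 6 counts against 0. Both Agt values on control diet, 0.103 and 0.326 CPM, lay under what 3 counts equalled in the MD libraries on LS+enal (0.575 and 0.492 CPM). These comparisons share libraries, so their results are not independent.

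Scaled to the length of merged exons, the members had different orders in the groups. In control cells on LS+enal Ren1 led with 50.9 ± 24.0 CPM per kb, followed by Enpep with 10.4 ± 9.01 and Atp6ap2 with 2.98 ± 0.701 CPM per kb (SD, n = 4). On control diet Enpep led in control cells with 12.6 ± 8.56 CPM per kb, while Atp6ap2 at 3.98 ± 2.20 and Ren1 at 2.73 ± 1.15 CPM per kb did not differ beyond their spread. In MD cells on control diet Atp6ap2 led with 5.27 ± 1.08 CPM per kb, ahead of Enpep with 1.59 ± 1.02 and Ren1 with 0.728 ± 0.196 CPM per kb (SD, n = 2). In MD cells on LS+enal Ren1 at 5.80 ± 1.17 and Atp6ap2 at 4.49 ± 1.90 CPM per kb overlapped. Agt, Ace and Agtr1a stayed at or under a mean of 2.17 CPM per kb in every group.

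**Figure D4:**
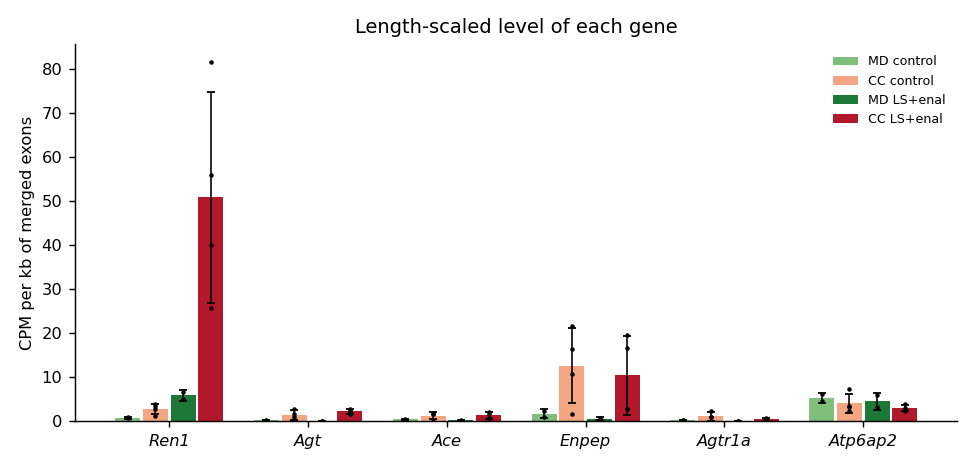
Mean CPM per kb of merged exons (linear axis from 0) of each member in macula densa (MD) and control cells (CC) on control diet or low salt with enalapril (LS+enal), with SD as error bars (stopped at 0) and libraries as dots. Ren1 in control cells on LS+enal, at 50.9 CPM per kb, stands above all other bars.

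Genes with a pattern over the 12 libraries most like that of a member were sought for members with a mean of at least 5 CPM, among 6687 genes at that level. Among the 3 for Ren1 were Jun, a transcription factor of the AP-1 family (Pearson r = 0.895 of log2 CPM), and Lars2, a mitochondrial leucyl-tRNA synthetase (0.838). Lars2 averaged 20435 CPM over the 12 libraries, beside 76.3 CPM for Jun. Whether the reads counted for Lars2 came from its mRNA was not tested. For Atp6ap2 they were the ATP synthase subunit genes Atp5c1 (0.955) and Atp5a1 (0.953) and Arl6ip1 (0.935). For Enpep they were Mndal (0.992) and Ifi203 (0.985), of the interferon-inducible p200 family, and the G protein regulator Rgs3 (0.989). These correlations describe 12 libraries that share cell populations and diets.

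The wider pathway was read from 20 further genes, of which 14 were tested. Between diets edgeR called 0 of them in either population, with 1 at an unadjusted p under 0.05 in MD cells and 2 in control cells, and the DESeq2 Wald test called 0 and 1. In the averaged cell comparison 2 were higher in MD cells and 1 lower, against 21.3% of all genes called. Anpep, aminopeptidase N, which trims angiotensin III, stood at 2.15 and 2.36 CPM in MD cells on control diet and at 0.958 and 1.31 CPM on LS+enal. Control cells held 14.1 to 24.3 CPM and 2.31 to 19.98 CPM on these diets, above every MD library of the same diet. Anpep was lower in MD cells by a log2 difference of -3.17 (SE 0.48, edgeR adjusted p = 0.00102), and also on control diet (0.0174) and on LS+enal (0.0201) alone. Each of these single-diet calls was lost without either MD library of that diet, at 0.121 and 0.172 on control diet and at 0.0954 and 0.135 on LS+enal.

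The 2 genes higher in MD cells were Klk1 and Agtrap. Klk1, tissue kallikrein of the distal nephron, averaged 255 ± 96.8 and 386 ± 117 CPM in MD cells on control diet and on LS+enal (SD, n = 2 each) and 72.3 ± 74.4 and 109 ± 80.9 CPM in control cells (SD, n = 4 each). On control diet Klk1 ran from 186 to 323 CPM in MD cells and from 21.1 to 180 CPM in control cells. On LS+enal it ran from 304 to 469 CPM and from 51.9 to 228 CPM. Its averaged log2 difference was 1.83 (SE 0.54, edgeR adjusted p = 0.0308), lost in 9 of 19 alternative settings. Agtrap, a protein that binds the type 1 receptor and promotes its internalisation, had a log2 difference of 0.65 (SE 0.18, edgeR adjusted p = 0.0258), lost in 6 of 19. It averaged 18.9 ± 4.96 and 15.8 ± 0.475 CPM in MD cells and 11.0 ± 2.69 and 11.0 ± 1.79 CPM in control cells.

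Downstream of angiotensin II, 3 of 4 genes of the aldosterone arm were tested, and 2 were lower in MD cells in the averaged comparison, where 13.9% of all genes were. Hsd11b2, which protects the mineralocorticoid receptor from glucocorticoids, averaged 5.40 ± 2.80 and 5.09 ± 2.32 CPM in MD cells on control diet and on LS+enal, and 85.2 ± 68.8 and 42.4 ± 25.1 CPM in control cells. Its log2 difference was -3.52 (edgeR adjusted p = 0.00309). Sgk1, a kinase induced by aldosterone, had a log2 difference of -4.17 (adjusted p = 0.00336). Between diets edgeR called neither in either population, with 0 of the 3 at an unadjusted p under 0.05 and 0 called by the DESeq2 Wald test. Hsd11b2 is also 1 of the 7 principal cell markers, which summed to 10.7 to 36.0 CPM in MD libraries, Fxyd4 being at 0 counts in MD cells on LS+enal. The part of principal cells in these differences was not tested.

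Signals that set renin release were led by known products of macula densa cells. Of 18 listed genes 17 were tested, and 3 were higher and 8 lower in MD cells in the averaged comparison, where 7.48% of all genes were higher and 13.9% lower. The higher genes include Nos1, whose activity decided which cells were sorted as MD, so its difference follows from the sort. Nos1 (log2 difference 8.26, edgeR adjusted p = 7.87e-09) and Ptgs2, cyclooxygenase-2 (6.70, adjusted p = 6.81e-06), were higher, and so was Rbpj, the nuclear effector of Notch (0.66, adjusted p = 0.0352, lost in 9 of 19 alternative settings). The 3 lower genes with the smallest p-values act on cyclic AMP, the main stimulus of renin release: the adenosine receptor Adora1 (adjusted p = 0.000347), the phosphodiesterase Pde3b (log2 difference -3.03, adjusted p = 0.00123) and the adenylyl cyclase Adcy5 (-2.52, adjusted p = 0.00202). Between diets edgeR called 0 of the 17 in either population, with 4 at an unadjusted p under 0.05 in MD cells and 0 in control cells, and the DESeq2 Wald test called Ptgs2 in MD cells alone. Ptgs2 averaged 15.1 ± 1.16 CPM in MD cells on control diet and 142 ± 47.6 CPM on LS+enal (SD, n = 2 each), at an edgeR adjusted p of 0.215.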

How the data were processed

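RNA was measured in 12 libraries of sorted mouse kidney cells, 2 macula densa and 4 control-cell libraries per diet, grouped by their labels. The deposited values are estimated counts per gene made by the authors, since 16.1% were not whole numbers; 0 columns lacked a sample. The submitters' processing notes name STAR 2.61, Partek and mm10 without their roles, and how the counts were estimated is not given in the sources used here. A stranded total-RNA kit was used, per the labels' protocols. Symbols, starts and ends of all 23378 rows matched GENCODE M21 once 1 was taken from each end.

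After a test on simulated data, counts were rounded and fitted with edgeR 4.0.16 in R 4.3.3: filterByExpr (count minimum 10, total minimum 15) left 14180 genes, libraries were scaled by trimmed means of M values, and glmQLFit and glmQLFTest with 1 coefficient per group covered all 12 libraries. P-values were adjusted over all genes by the Benjamini-Hochberg method at 0.05. CPM refer to the scaled library total, and log2 CPM used a prior count of 2. A group with at most 3 counts in every library was at the floor, and its fold is a bound. Intervals are at 95%. Depth limits low members: floors cover counting error only, since counted reads are not independent molecules.

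All 8 members are named whatever their values. Of the listed pathway genes, up to 3 called per direction by smallest p are named, for members above a mean of 5 CPM the 3 genes of highest correlation, and of the cell type markers a fixed few. Members and lists were chosen with earlier results of these data known. Alternatives were DESeq2 1.42.0 size factors and its Wald test, library totals, no filter, leaving out mitochondrial and ribosomal RNA genes, only the groups compared, replicate blocks, and leaving out each library. Counts of replicate libraries differed by more than sampling noise in every pair. A few values that this rule would name are not reported here.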

Additional observations from a re-analysis of the deposited data

Results flagged for a closer look

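A library far from the others of its group was found in 2 of 38 sets of 4 libraries checked, where chance gives about 1 in 20, or 1.9 sets. Both were control-cell replicate 4 on control diet. Its Ace level was -1.59 log2 CPM, while the other 3 libraries lay between 3.005 and 3.25. Its Sgk1 level was 2.71 log2 CPM, while the others lay between 5.91 and 6.23.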

How the results depend on the processing

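Over all alternatives, the members and the pathway and marker genes followed gave 979 values, of which 872 kept their direction and side of the threshold, 63 lost a call, 32 gained one and 12 changed sign. On control diet, with 1 member called, 0 were called with library totals, no filter, without mitochondrial and ribosomal RNA genes or with only the groups compared, and 3 with the DESeq2 Wald test. Leaving out 1 library gave 0 to 4. On LS+enal, with 2 called, the Wald test and the fit of only the groups compared gave 4 each, and leaving out 1 library 0 to 4. Averaged over diets, with 4 called, leaving out 1 library gave 2 to 6. In MD cells the Wald test and only the groups compared gave 1 in place of 0, and in control cells only the groups compared gave 0 in place of 1. Where 1 MD library was left, it was assumed to vary like the other groups. The cause of these shifts was not tested.

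Library totals moved the median of all genes to 0.12 on control diet and 0.14 averaged, from -0.05 and -0.06. Between diets in control cells, Ace changed sign with library totals (-0.011), and leaving out 1 library gave -0.37 to 0.30, the negative values being without replicate 4 on control diet (-0.37) or without replicates 2 (-0.29) or 4 (-0.099) on LS+enal. Enpep there ran from -0.77 to 0.12, at 0.12, 0.046 and 0.041 without replicate 1 on control diet or without replicates 1 or 3 on LS+enal. Atp6ap2 ran from -0.60 to 0.031 there (0.031 without replicate 4 on control diet) and from -0.80 to 0.074 in MD cells (0.074 without replicate 1 on LS+enal). Its interaction ran from -0.39 to 0.49, negative without MD replicate 1 on control diet (-0.059), MD replicate 2 on LS+enal (-0.39) or replicate 4 of control cells on control diet (-0.26).

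Whether replicate numbers pair the samples was not settled. Deviations of same-numbered libraries from their group means correlated at -0.377 to 0.278 for title numbers and at -0.037 to 0.227 for the numbers in the descriptions. In a group of 2 MD libraries these deviations are exact opposites, so correlations that involve MD cells cannot decide whether a number pairs samples. With a block for the title number, 0 members were called on control diet, 1 on LS+enal, 3 averaged and 0 between diets in control cells (Ren1 adjusted p = 0.10 in edgeR). With a block for the description number, 5, 5 and 6 were called in the 3 cell comparisons. Macula densa and control-cell libraries share 4 of these numbers, but the labels do not say what a number marks. On control diet this block added Ren1 (adjusted p = 0.0496), Ace (0.00436), Agtr1a (0.0457) and Enpep (0.000168), on LS+enal Ace (0.000815), Agtr1a (0.0366) and Enpep (4.48e-05), and averaged Agtr1a (0.00544) and Atp6ap2 (0.0189), all in edgeR.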
